A study of Canis lupus familiaris with 32 samples.

Results

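Subgroup B is a set of 8 primary canine osteosarcomas from dogs with short survival (SS), and it was set here against all 16 tumors of dogs with long survival (LS). Its members were the SS arrays numbered 3, 4, 5, 7, 8, 10, 11 and 12, which is 8 of the 16 SS arrays and 8 of 32 arrays in the whole series. The series holds 1 array per tumor. Every tumor was hybridized against a common reference pool made from all 32 tumors, on 2-color cDNA arrays. Each value is therefore a log2 ratio of a tumor over that pool, and a ratio cannot show whether a tumor expressed bone genes at all, only whether it had more or less than the pool. The tumors came from different dogs of several breeds, were taken at surgery before any therapy, and were not cultured or sorted. The sample labels do not name the subgroup. Its members were read from the survival curves of the study, which had clustered the arrays on clones chosen between SS and LS on these same arrays, so the values below describe the subgroup and cannot test it.

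Subgroup B held 5 tumors labeled in Cy5 and 3 labeled in Cy3, and LS held 8 of each. All 8 tumors of subgroup B lay in the long bones of a limb, as did 9 of 16 LS tumors and 6 of the 8 other SS tumors. Females made up 4 of 8 dogs in subgroup B, 7 of 16 in LS and 3 of 8 among the other SS dogs.

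Osteosarcoma is a malignant tumor of bone whose cells lay down osteoid, and in large dogs, as in people, it often spreads to the lung. Nuclear RNA of a tumor cell passes through the spliceosome, where serine- and arginine-rich proteins and the kinases that phosphorylate them select splice sites, while corepressors, bromodomain proteins and remodeling enzymes set which genes are open to transcription. Motor proteins, chaperones and DNA repair complexes serve every dividing cell, and none of these groups is particular to bone.

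Array medians lay between -0.03 and 0.02 and the SD across probes between 0.47 and 0.76, so that no array stood apart in scale. The dye did: 14200 of 22176 probes differed between Cy5 and Cy3 tumors (limma, adjusted p under the 0.10 used throughout), and the mean ratios of the probes in Cy5 and Cy3 arrays correlated at r = -0.66 across the 22176 probes. Arrays of the same orientation all correlated above 0, the lowest r being 0.024 among Cy5 and 0.0026 among Cy3 arrays, and pairs of opposite orientation had a median r of -0.26. Arrays with the tumor in Cy5 were written with up to 10 digits and those with it in Cy3 with up to 7. The direction of the ratio, tumor over pool, rests on the methods of the study, and a turn of all arrays together could not be seen in the values.

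In subgroup B, 250 of 22176 probes were higher than in LS (1.13%) and 60 were lower (0.271%) with dye orientation in the model, 310 in all (1.4%). Since the subgroup was found by clustering, nothing is read from these shares. The log2 differences of the higher probes ran from 0.18 to 2.49 with a median of 0.56, and 31 exceeded 1. Those of the lower probes ran from -0.74 to -0.15 with a median of -0.32, and 8 lay below -0.50. The median over all probes was -0.01. A gene symbol was known for 167 higher probes of 150 genes and for 28 lower probes of 27 genes, while 115 of the 310 probes had none. In all, 7694 probes of 5246 genes had a symbol. The gene lists below hold only such probes. Their shares therefore stand beside 167 of 7694 named probes higher and 28 lower, and 150 of 5246 genes higher. The lists were chosen with earlier results of these data known, so these shares are a description and no test. For 19 probes (0.0857%) every tumor of subgroup B lay above every LS tumor, although the dye moves both groups, and for 0 probes (0%) did every tumor of subgroup B lie below every LS tumor. Single tumors and the model moved these counts. Without tumor 22 (LS) 509 probes passed, 393 of them higher, and without tumor 12 (subgroup B) 200. The count of lower probes rose to 125 without tumor 7 and 116 without tumor 22, and was 26 to 36 without tumor 3, 12, 17, 23 or 25. With no dye term 99 probes passed, and with the 9 LS tumors of limb long bones alone 206.

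**Figure D1:**
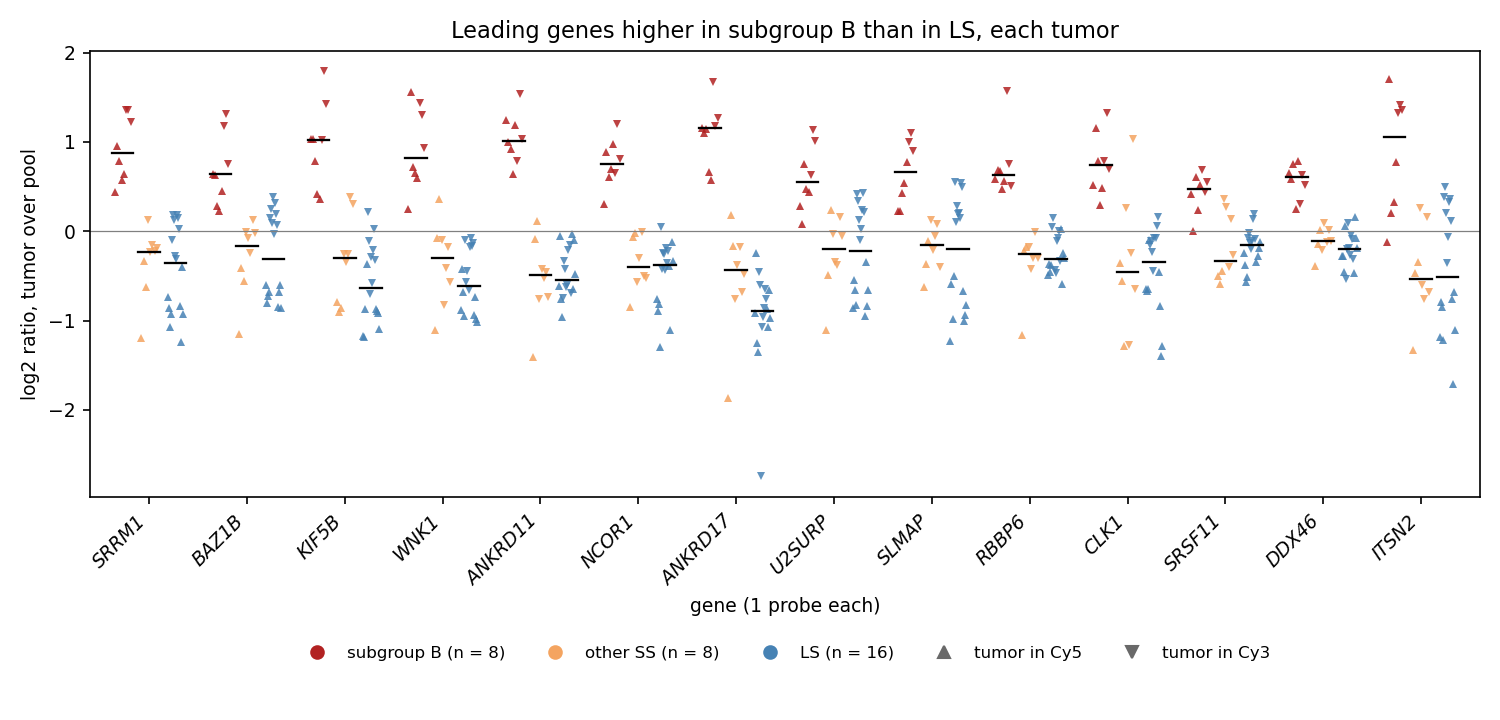
Log2 ratio of tumor over pool (vertical axis) for the 14 genes with the smallest p among those higher in subgroup B, 1 point per tumor, by group; upward triangles are Cy5 and downward triangles Cy3 tumors, and bars are group medians. The medians of subgroup B lie above 0 and those of LS below 0 for all 14 genes, and the other SS tumors lie mostly with LS.

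Of the leading genes, SRRM1, KIF5B, WNK1, ANKRD11, NCOR1 and ANKRD17 are on the list that the study chose on these arrays (study list). The clustering behind subgroup B used clones of that choice, so their small p-values and separation are a description and no test. The largest difference among the named genes was that of a chromatin and transcription regulator. ANKRD17, an ankyrin repeat protein of the nucleus with roles in cell cycle entry and innate signaling, ran from 0.57 over a median of 1.15 to 1.67 in subgroup B and from -2.75 over -0.89 to -0.24 in LS. No tumor of subgroup B overlapped LS. The log2 difference was 2.07 (SE 0.21), a fold change of 4.20. Of its other probes 1 passed as well, with 0.95, and 1 did not, with 0.21. Tumor 23, an LS tumor, was the lowest of all at -2.75.

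ANKRD11, which recruits histone deacetylases and binds nuclear receptor coactivators, had a lowest value of 0.64, a median of 1.02 and a highest value of 1.54 in subgroup B, against -0.96, -0.54 and -0.03 in LS. Here too the groups stood apart in all tumors, and the log2 difference was 1.51 (SE 0.12), a fold change of 2.85. NCOR1, the nuclear receptor corepressor, ran from 0.30 over 0.75 to 1.20 in subgroup B and from -1.30 over -0.38 to 0.05 in LS. Its log2 difference was 1.30 (SE 0.13), again with no overlap. The other 2 probes of NCOR1 differed by only 0.07 and 0.19.

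BAZ1B, a bromodomain protein of a chromatin remodeling complex, ran from 0.22 over 0.64 to 1.31 in subgroup B and from -0.85 over -0.31 to 0.38 in LS. With 6 of 8 tumors above every LS tumor the groups overlapped slightly. The log2 difference was 1.06 (SE 0.08), 1 further probe passed at 0.73, and the lowest of its other probes differed by 0.11. The histone demethylases KDM5A (log2 difference 0.55) and KDM5B (0.50), the bromodomain gene BAZ2B (0.70) and HMGB1, which bends DNA (0.71, SE 0.19), made up the rest of the chromatin regulators that passed. In all, 8 of 35 genes of that list were higher and 0 lower. At the level of probes these were 10 of 62 (16.1%), and the median over all 62 was 0.11. Of the higher genes ANKRD11, ANKRD17, NCOR1 and HMGB1 are on the study list, so this share is partly set by the study's choice. With LS of limb long bones HMGB1 did not pass (limma adjusted p = 0.229).

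Splicing genes were also among the leading differences. SRRM1, a coactivator of splicing with serine and arginine repeats, had the smallest p of all named genes and is on the study list. In subgroup B it ran from 0.44 over a median of 0.87 to 1.36, and in LS from -1.24 over -0.36 to 0.19. Every tumor of subgroup B lay above every LS tumor, and the log2 difference was 1.46 (SE 0.09), a fold change of 2.74. Its other probe differed by only 0.02.

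CLK1, a kinase that phosphorylates serine- and arginine-rich splicing proteins, was at 0.30, 0.74 and 1.32 (lowest, median and highest) in subgroup B and at -1.40, -0.34 and 0.16 in LS. The groups did not overlap, with a log2 difference of 1.25 (SE 0.14), while tumor 15, an SS tumor outside the subgroup, reached 1.03. DDX46, a helicase needed to assemble the spliceosome, also separated all tumors, from 0.25 over 0.61 to 0.79 against -0.53 over -0.20 to 0.16 (log2 difference 0.75, SE 0.09).

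SRSF11, a serine- and arginine-rich splicing factor, differed by 0.65 (SE 0.08), with 7 of 8 tumors of subgroup B above every LS tumor. U2SURP, a protein associated with the U2 particle of the spliceosome, differed by 0.95 (SE 0.10), with 6 of 8. SON, a scaffold of nuclear speckles, differed by 0.87 (SE 0.11), with 7 of 8. Of the other 4 probes of SON 2 passed too, and the 4 ranged from 0.19 to 0.92. SCAF11 (0.74, SE 0.11) and LUC7L2 (0.71) were higher as well. DDX17, an RNA helicase, was lower by a small amount (-0.15), at 1 of its 5 probes. Of 40 genes in the list of splicing factors and RNA helicases, 6 were higher and 1 lower, or 8 of 83 probes higher (9.64%), and the median over the 83 probes was 0.06. CLK1 and U2SURP are not in that list and are not counted in it. SRRM1 and SCAF11 are on the study list, so the share is partly set by the study's choice.

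Several further genes of RNA processing and transcription passed outside the lists and are named here after their values were seen. PRRC2C, an RNA-binding protein, differed by 0.69 and NR3C1, the glucocorticoid receptor, by 0.77, each with all 8 tumors of subgroup B above every LS tumor. The other probe of NR3C1 differed by 0.11. SRPK2, a further kinase of splicing proteins, differed by 0.79 at 1 of 4 probes, PNISR, a speckle protein, by 0.87 and 0.50 at 2 of 4, and TCEA1, an elongation factor of RNA polymerase II, by 1.13. RSF1, a histone chaperone, differed by 0.83, and all 8 tumors of subgroup B exceeded LS.

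Transport and signaling genes were among the leading differences too. KIF5B, the heavy chain of the motor kinesin-1, was at 0.36, 1.03 and 1.79 (lowest, median and highest) in subgroup B and at -1.18, -0.64 and 0.21 in LS. No tumors overlapped, and the log2 difference was 1.65 (SE 0.13), a fold change of 3.14. It was nearly the same in Cy5 tumors (1.65) and in Cy3 tumors (1.66). The array held 1 probe for KIF5B. It was the 1 gene called of 35 in the list of actin and microtubule motors (1.89% of 53 probes), with a list median of 0.01. As 167 of 7694 named probes were higher, nothing is read from that share.

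WNK1, a kinase that governs chloride transport, was at 0.25, 0.82 and 1.55 in subgroup B and at -1.02, -0.61 and -0.08 in LS. All tumors of subgroup B lay above LS, with a log2 difference of 1.55 (SE 0.12), whereas its other probe differed by -0.07. ITSN2, a scaffold of endocytosis, differed by 1.44 (SE 0.17), with 5 of 8 tumors above LS and the lowest at -0.12. SLMAP, a membrane protein of a phosphatase complex, differed by 1.03 (SE 0.11), with 4 of 8 above LS. Its difference was larger in Cy5 (1.28) than in Cy3 tumors (0.68).

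RBBP6, a ubiquitin ligase that binds p53 and RB1, was at 0.48, 0.63 and 1.56 in subgroup B and at -0.59, -0.31 and 0.15 in LS. The groups did not overlap and differed by 1.01 (SE 0.11) on the log2 scale, but the other probe of RBBP6 differed by -0.07. Of 39 genes of the proteasome and ubiquitin list, RBBP6 and USP9X (0.33), a deubiquitinase, were higher and ARIH2, a ring-between-ring ligase, was lower (-0.29, SE 0.07). At the level of probes that was 2 of 78 higher (2.56%), with a median of 0.08. Beside 167 of all 7694 named probes, nothing is read from that share. USP9X did not pass with LS of limb long bones (limma adjusted p = 0.127).

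**Figure D2:**
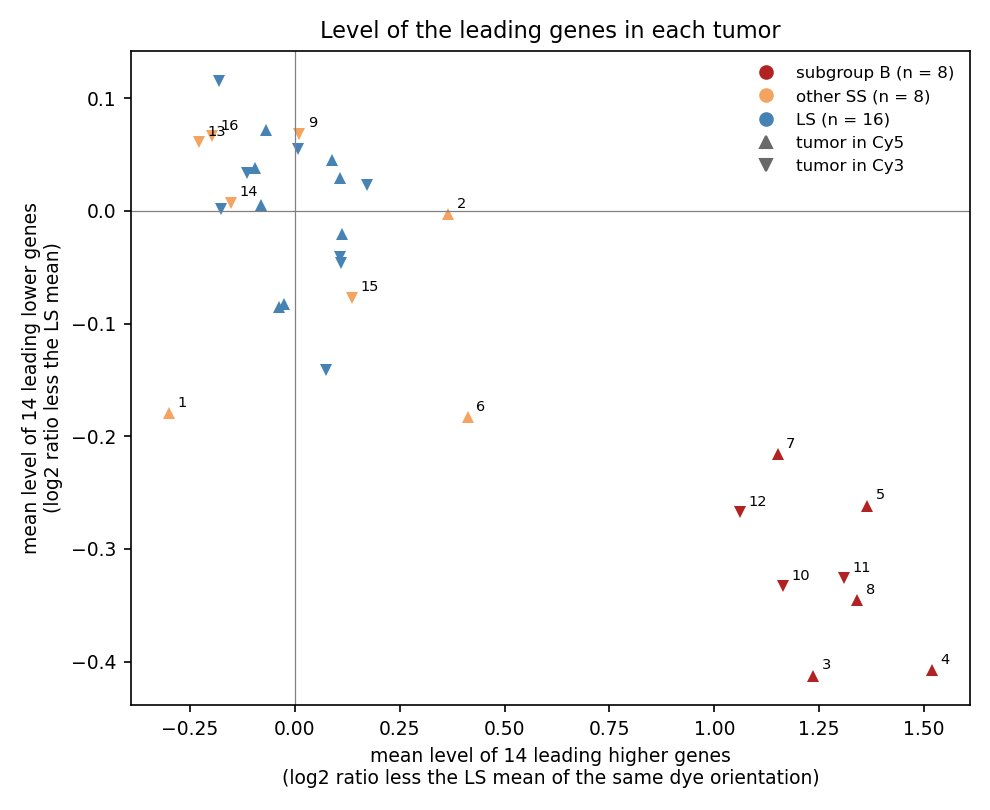
Mean level of the 14 leading higher genes (horizontal axis) against that of the 14 leading lower genes (vertical axis) in each of 32 tumors, as log2 ratios less the LS mean of the same dye orientation; numbers mark SS tumors. The 8 tumors of subgroup B lie from 1.06 to 1.52 on the horizontal axis and every other tumor at 0.41 or below.

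The leading higher genes were averaged in each tumor. The mean level of the 14 leading higher genes, relative to LS of the same orientation, ran from 1.06 in tumor 12 over a median of 1.27 to 1.52 in tumor 4. In LS the same mean ran from -0.18 to 0.17. Among the other SS tumors it ran from -0.30 over a median of -0.07 to 0.41, and tumors 2 (0.37) and 6 (0.41) exceeded every LS tumor. The genes were chosen by the contrast with LS, and clustering of these arrays split subgroup B from the other SS tumors. The gaps of subgroup B to both are therefore given as a description. Within LS, where no subgroup enters, the 91 pairs of these genes had a median r of 0.10 (n = 16 tumors, each value centered on its orientation), against 0.01 over all pairs of named probes. Among the other SS tumors the median r was 0.53 (n = 8) and within subgroup B 0.13 (n = 8). The pairs share the arrays and the pool.

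DNA repair and chromosome structure held 6 higher genes of 18 and 0 lower, or 7 of 31 probes (22.6%). The median over the 31 probes was 0.10. It stands beside 167 of 7694 named probes higher. Of the higher genes SMC6 is on the study list, chosen on these arrays. The DNA repair list itself was drawn up with earlier results of these data known. Its share is therefore partly set by that choice and is no test. BOD1L1, which protects stalled replication forks, was at 0.06, 0.55 and 1.28 in subgroup B and at -1.06, -0.47 and 0.30 in LS. All but 1 tumor of subgroup B exceeded LS, and the log2 difference was 1.01 (SE 0.15). PARP4, an ADP-ribosyltransferase of vault particles, separated all tumors, with 0.05, 0.36 and 0.76 against -0.52, -0.15 and 0.05, and a log2 difference of 0.50 (SE 0.07). Its other probe differed by -0.64 without passing.

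SMC6 (0.77, SE 0.12) and SMC5 (0.79), the core of a complex that resolves joined DNA strands, RAD50 (0.60, SE 0.10), which tethers broken ends, and ATRX (0.64), a remodeler of repetitive chromatin, were the remaining 4. RAD50 and SMC5 each had a further probe that did not pass, with -0.07 and 0.10. The mean level of the list lay above every LS tumor in 7 of 8 tumors of subgroup B and in 2 of 8 other SS tumors. That level includes the genes called here, so it is a description and no test. Of 16 DNA replication genes only RFC1, the large subunit of the clamp loader, passed (0.68, SE 0.08, with 7 of 8 tumors above LS). In the list of cell cycle and mitosis, 0 of 7 genes passed in limma, with 1 of 8 probes at an unadjusted p under 0.05 and a median of 0.12.

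Chaperones, redox enzymes and adhesion genes gave smaller groups. HSP90AA1, the inducible cytosolic HSP90, was at -0.17, 0.67 and 1.73 in subgroup B and at -2.91, -0.84 and 0.21 in LS. With 6 of 8 tumors above LS it differed by 1.54 (SE 0.32), more in Cy3 (2.19) than in Cy5 tumors (1.09). HSP90B1, its counterpart of the endoplasmic reticulum (0.91, SE 0.24), DNAJC3 (0.40, SE 0.10) and SEC63, which helps proteins enter that organelle (0.73, SE 0.13), were also higher, 4 of 30 chaperone genes. The 3 other probes of HSP90B1 differed by -0.08 to -0.01, and its call held in 15 of 24 fits that left out 1 array and was lost with LS of limb long bones (limma adjusted p = 0.133). The list median was 0.11 over 50 probes, of which 8% were higher. HSP90AA1 and SEC63 are on the study list, so the share is partly set by the study's choice. DNAJC3 did not pass with LS of limb long bones either (limma adjusted p = 0.177).

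PON1, an esterase of serum, was at -0.19, 0.60 and 1.35 in subgroup B and at -2.30, -0.84 and 0.24 in LS, a log2 difference of 1.44 (SE 0.28). Most tumors of subgroup B, 6 of 8, lay above LS, but the other 4 probes of PON1 differed by 0.01 to 0.23. TXNRD1, thioredoxin reductase (0.54, SE 0.08, with 7 of 8 above LS), and ABCC5, an efflux pump (0.33, SE 0.06), were higher, so that 3 of 37 genes of drug efflux and detoxification passed (4.35% of 69 probes, median 0.05). PON1 was also the 1 gene of 18 plasma and liver proteins, whose median was 0.00 over 49 probes (2.04% higher). PON1 is on the study list, and beside 167 of 7694 named probes higher nothing is read from either share.

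TLN1, talin, which couples integrins to actin (0.57, SE 0.09), and LIMS1, an adaptor of integrin-linked kinase (0.87, SE 0.17, with a further probe at 0.50), were 2 of 16 integrin and adhesion genes (13% of 23 probes, median -0.06). Of those 23 probes 8 lay above 0 (34.8%), against 48.6% of all probes. CCAR1, a coactivator that acts in cell cycle and apoptosis signaling, differed by 1.02 (SE 0.13), its other probe by 1.15, and both passed. With BIRC6, an inhibitor of apoptosis (0.47, SE 0.11), CCAR1 made 2 of 14 apoptosis genes, whose 24 probes had a median of 0.04 (12.5% higher). CCAR1 is on the study list, and BIRC6 did not pass with LS of limb long bones (limma adjusted p = 0.212). CSNK1A1, a kinase that marks beta-catenin for destruction (0.61, SE 0.14), was the 1 gene of 17 in the Wnt list (3.57% of 28 probes), where the median was 0.00. It did not pass with LS of limb long bones (limma adjusted p = 0.115). With 167 of 7694 named probes higher, nothing is read from the shares of these lists.

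Genes for the machinery of translation passed in both directions. RPS23, a small ribosomal subunit protein, was higher (0.42, SE 0.10) and RPS26 (-0.35, SE 0.09) and RPS28 (-0.30, SE 0.08) were lower, 3 of 54 cytosolic ribosomal protein genes, with a median of -0.06 over 131 probes, of which 0.763% were higher and 1.53% lower. MRPL19 (0.42, SE 0.11) and MRPS31 (0.48, SE 0.13), of the mitochondrial ribosome, were 2 of 57 genes of their list. The median was 0.09 over 89 probes, of which 2.25% were higher, beside 167 of all 7694 named probes. The MRPS31 values overlapped, from -0.30 to 0.89 in subgroup B and from -1.08 to 0.49 in LS. RPS28 and MRPS31 lay at the limit, and each passed in 6 of the 24 fits without 1 array, and MRPL19 in 10. The other probe of RPS28 differed by 0.04. With LS of limb long bones RPS23, RPS28 and MRPL19 did not pass (limma adjusted p = 0.264, 0.242 and 0.246).

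**Figure D3:**
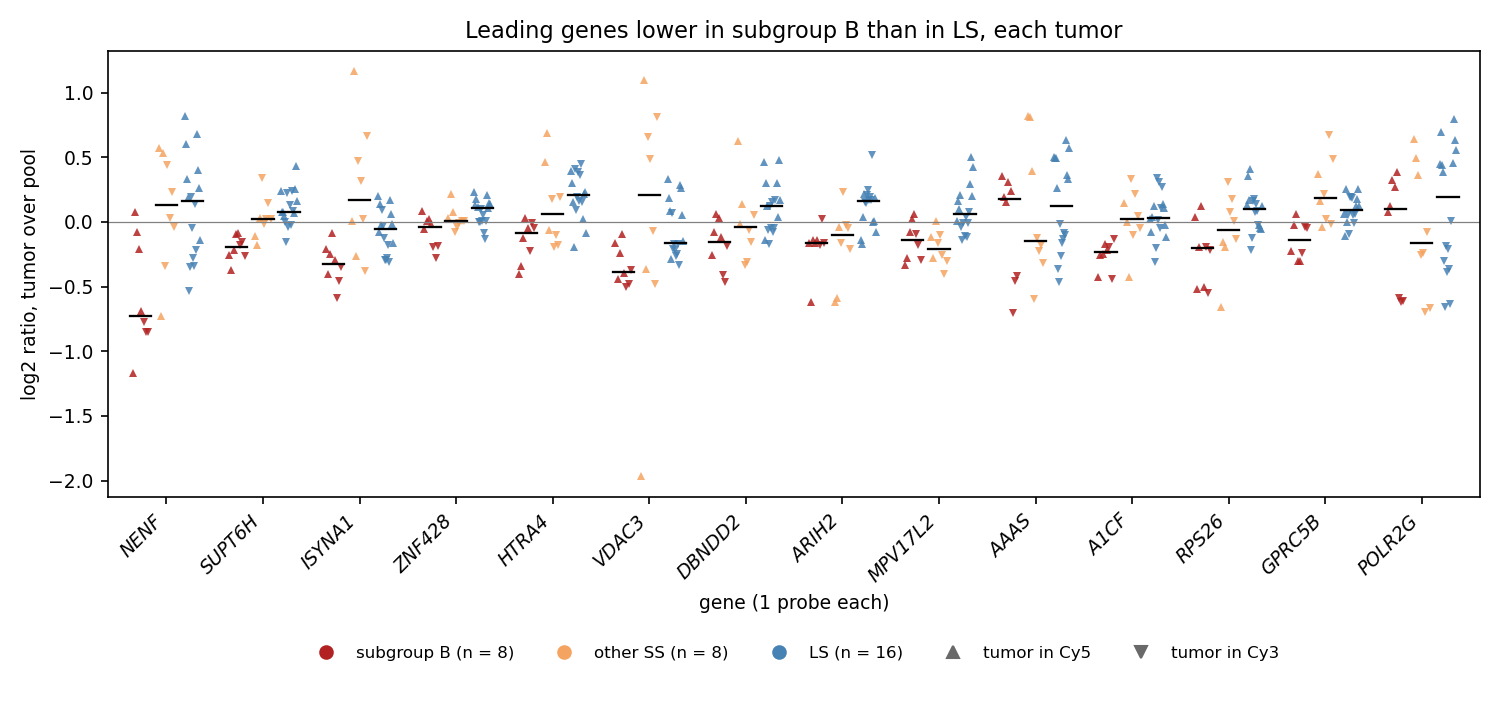
Log2 ratio of tumor over pool (vertical axis) for the 14 genes with the smallest p among those lower in subgroup B, 1 point per tumor, by group; symbols as for the leading higher genes, bars are group medians. The groups overlap in each of the 14 genes, and for AAAS and POLR2G the Cy5 and Cy3 tumors form separate bands in subgroup B.

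Genes lower in subgroup B had small differences. NENF, neudesin, a secreted growth factor, had the largest of them, with -1.17, -0.73 and 0.08 (lowest, median and highest) in subgroup B and -0.54, 0.16 and 0.82 in LS. Most tumors of subgroup B, 5 of 8, lay below every LS tumor, and the log2 difference was -0.74 (SE 0.14). SUPT6H, a histone chaperone of transcript elongation, was at -0.37, -0.20 and -0.08 against -0.16, 0.08 and 0.43, with 6 of 8 tumors below LS and a log2 difference of -0.33 (SE 0.06).

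VDAC3, a channel of the outer mitochondrial membrane (-0.32, SE 0.07), ISYNA1, which makes inositol phosphate (-0.29, SE 0.06), and GPRC5B, an orphan receptor (-0.24, SE 0.06), were lower as well. The other probe of GPRC5B differed by 0.37, the opposite direction, and did not pass. The remaining leading genes were ZNF428, HTRA4, DBNDD2, ARIH2, MPV17L2, AAAS, a nucleoporin, A1CF, an RNA-binding cofactor of mRNA editing, RPS26 and POLR2G, a subunit of RNA polymerase II, with log2 differences from -0.35 (RPS26) to -0.17 (ZNF428). For AAAS the median of subgroup B, 0.17, lay above the LS median of 0.12, with 5 of 8 tumors above it. The means were -0.04 in subgroup B and 0.13 in LS. The other probes of A1CF differed by 0.07 and 0.71 and did not pass. MPDZ (-0.54, SE 0.15), FIBP (-0.40, SE 0.11), ETFRF1 (-0.39, SE 0.10) and AFG3L2, a mitochondrial protease (-0.38, SE 0.10), followed NENF by size. The MPDZ difference was -0.86 in Cy5 and -0.09 in Cy3 tumors, and MPDZ and FIBP each passed in only 6 of 24 fits that left out 1 array. Of the 12 other probes of ETFRF1 1 passed, and all 12 were below 0, from -0.46 to -0.07, while those of AFG3L2 differed by -0.02 and 0.05. With LS of limb long bones alone 8 of the 14 leading lower genes did not pass, namely ISYNA1, ZNF428, HTRA4, VDAC3, DBNDD2, ARIH2, MPV17L2 and GPRC5B, and neither did MPDZ, FIBP, ETFRF1 and AFG3L2.

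**Figure D4:**
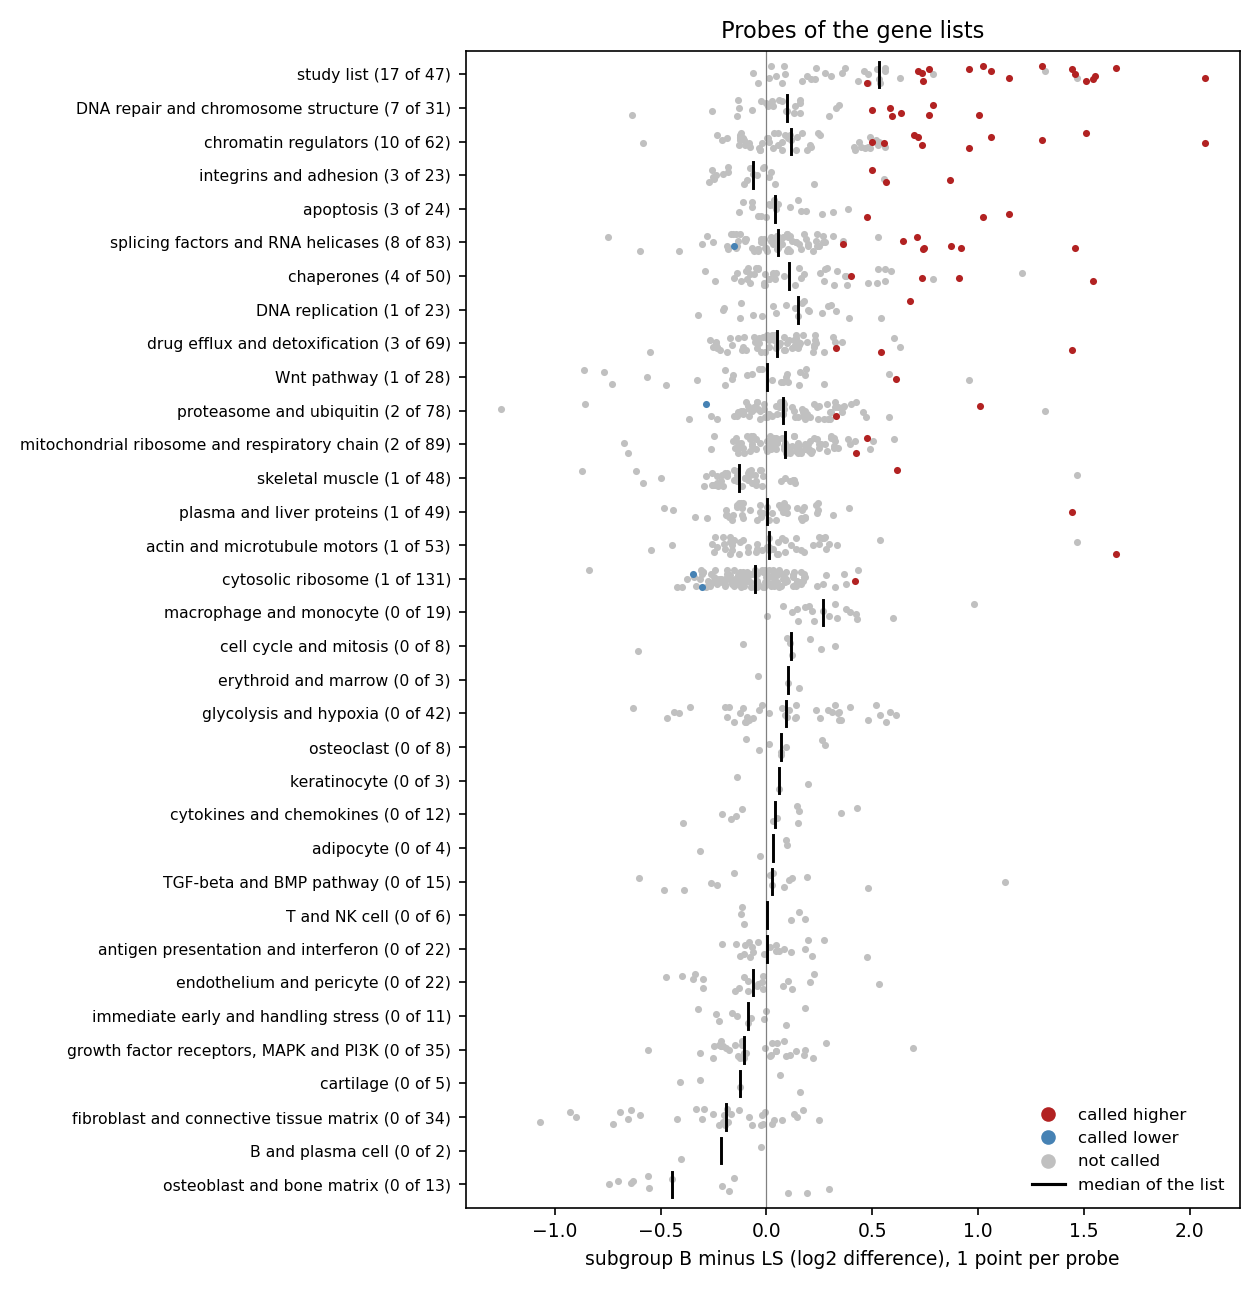
Log2 difference of subgroup B minus LS (horizontal axis) for each probe of the 34 gene lists with a probe, ordered by the share of probes called higher; brackets give that number of the probes in the list, and black bars are medians. Calls higher in subgroup B lie in 16 lists, and the macrophage list has all 19 probes above 0 with 0 called.

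In 18 of 34 lists with a probe, 0 of 166 genes passed in limma, and 21 of their 262 probes had an unadjusted p under 0.05, against 2940 of all 22176 probes (13.3%). The tumors were bulk tissue, in which fewer cells of a type and less RNA per cell cannot be told apart. Osteoblast and bone matrix genes had a median of -0.45 over 13 probes, 3 of them above 0, but the tumors varied widely. SPARC, an abundant bone matrix protein, was at -2.15, -0.68 and 0.74 in subgroup B and at -3.18, 0.00 and 1.21 in LS, so that the groups lay within each other (log2 difference -0.74, SE 0.44). Its other 4 probes were also below 0, from -0.70 to -0.45. ALPL, the bone alkaline phosphatase, was at -3.42, -1.39 and 0.60 against -3.86, 0.03 and 1.78, with 0.31 in Cy5 and -1.98 in Cy3 tumors.

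Macrophage and monocyte genes had all 19 probes above 0, with a median of 0.27, while 48.6% of all probes were above 0. CYBB, the oxidase subunit of phagocytes, was at -0.43, 0.18 and 3.21 in subgroup B and at -0.89, -0.64 and 0.05 in LS, with 5 of 8 tumors above LS (log2 difference 0.98, SE 0.29, not passing), and tumor 4 alone supplied the highest value. The summed level of this list, as a mean over its probes, ran from -0.72 to 2.04 in subgroup B, from -0.72 to 0.91 in LS and from -0.57 to 0.85 in the other SS tumors, with 1 tumor of subgroup B above LS. The part of macrophage RNA in the differences of the leading genes was not tested.

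Skeletal muscle genes were 1 of 24 higher (2.08% of 48 probes), namely ACTN2, an actinin of the Z disc (0.62, SE 0.14, with 4 other probes from -0.14 to 0.13). That share is set beside 167 of 7694 named probes higher, and nothing is read from it. The list median was -0.13 over the 48 probes, and TPM1 was at -0.87 (SE 0.27, not passing). The level of the muscle list ran from -0.41 to 0.88 in subgroup B and from -0.42 to 1.09 in LS. Genes of fibroblasts and connective tissue had a median of -0.19 over 34 probes, and COL3A1 differed by -1.07 (SE 0.59, not passing). The level of that list ran from -0.79 to 0.42 in subgroup B, within the LS range of -1.40 to 0.80. Medians of the cartilage (-0.13), osteoclast (0.07), T and NK cell (0.00), B and plasma cell (-0.21), endothelium and pericyte (-0.06), erythroid and marrow (0.10), adipocyte (0.03) and keratinocyte (0.06) lists rested on 2 to 22 probes each. Those of glycolysis and hypoxia (0.09), the TGF-beta and BMP pathway (0.03), cytokines and chemokines (0.04), antigen presentation and interferon (0.00), growth factor receptors, MAPK and PI3K (-0.10) and immediate early genes (-0.09) lay between -0.10 and 0.09.

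The 24 genes that the study had listed between SS and LS and that have a probe here included 15 that were higher in subgroup B and 0 lower, 17 of 47 probes (36.2%), with a median of 0.53. The study chose them on these arrays, which makes the count no independent evidence. The 15 were ANKRD11, ANKRD17, CCAR1, HMGB1, HSP90AA1, KIF5B, MRPS31, NCOR1, PON1, RSL1D1, SCAF11, SEC63, SMC6, SRRM1 and WNK1. Several of them are also counted in the other gene lists above, whose shares are therefore partly set by that choice. RSL1D1, a nucleolar regulator of growth, differed by 1.06 (SE 0.15, with 7 of 8 tumors above LS). WSB2, an adaptor of a ubiquitin ligase, was at -2.31, 0.64 and 2.86 in subgroup B and at -4.16, -1.09 and 1.84 in LS, and its log2 difference of 1.31 (SE 0.50) did not pass. Among the other SS tumors WSB2 differed from the same LS arrays by 2.89. CFL2, a cofilin of muscle, differed by 1.47 (SE 0.53), with tumors of subgroup B from -1.09 to 4.10, and did not pass either. The same held for MGST1 (0.63), COMMD8 (0.43), ATP6V1C1 (0.54), BLVRB (0.36), FRA10AC1 (0.46), HSPA9 (0.79) and HSPD1 (0.48). In the other SS tumors, against the same LS arrays, the log2 differences of these were 1.02, 0.62, 0.75, 0.75, 0.50, 0.49 and 0.46.

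For most of the leading higher genes the other SS tumors had values near LS. Both comparisons share the 16 LS arrays. Subgroup B was also split from the other SS tumors by clustering of these arrays. Low values of such genes in the other SS tumors are thus partly set by that split and are a description. SRRM1 differed from LS by 1.46 in subgroup B and by -0.01 in the other SS tumors, BAZ1B by 1.06 and -0.12, KIF5B by 1.65 and 0.16, WNK1 by 1.55 and 0.15, ANKRD11 by 1.51 and -0.07, and ANKRD17 by 2.07 and 0.42. Over the 250 higher probes the other SS tumors had a median log2 difference of 0.05 and lay above LS at 149 probes. Over the 60 lower probes their median was -0.14, and they lay below LS at 50. Over all probes the median of the other SS tumors less LS was 0.001, and the share above LS was not counted. The probes were called against the same LS arrays, which can move the other SS tumors to the same side. Neither count is therefore read as a trait shared by SS tumors. Among the lower genes ARIH2 differed from LS by -0.29 in subgroup B and by -0.33 in the other SS tumors. For MPV17L2 these values were -0.27 and -0.28, for AFG3L2 -0.38 and -0.40, for NENF -0.74 and 0.03, and for ISYNA1 -0.29 and 0.34. MRPS31, higher by 0.48 in subgroup B, was higher by 0.74 in the other SS tumors.

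**Figure D5:**
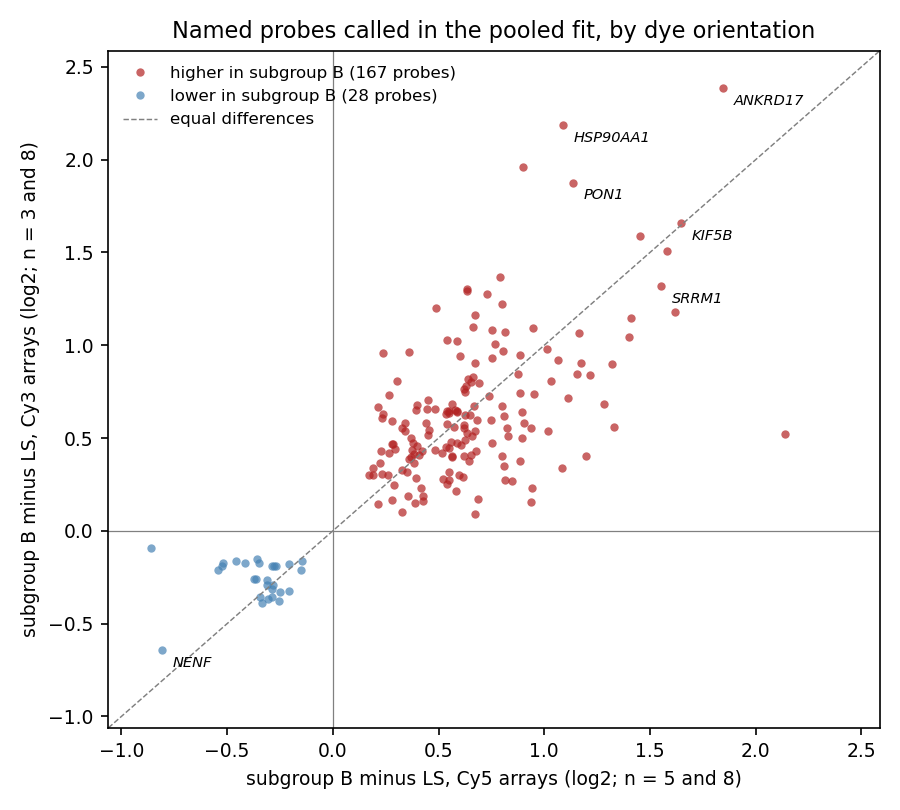
Log2 difference of subgroup B minus LS within the Cy5 tumors (5 and 8, horizontal axis) and within the Cy3 tumors (3 and 8, vertical axis) for the named probes called with both orientations together, 167 higher and 28 lower. All lie on the same side in both orientations, which follows largely from calling them with both together. The dashed line marks equal differences.

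The Cy5 and the Cy3 tumors have no array in common, so each difference can be read in both. All 310 probes called lay on the same side in both orientations. Over all 22176 probes, however, the differences within Cy5 and within Cy3 did not follow each other (r = -0.06 across probes, which are not independent), and 51.3% had the same sign. Within the Cy5 tumors alone 1385 probes passed (6.25%), and 392 of these (28.3%) had the same sign in Cy3. Within the Cy3 tumors alone 211 passed (0.951%), and 137 (64.9%) had the same sign in Cy5. The interaction of subgroup with orientation passed at 1314 probes (5.93%).

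The strength of the dye effect differed beside these counts. It was taken as the slope of each array on a dye profile made from the other SS arrays, and its mean size was 0.545 in the Cy5 tumors of subgroup B and 0.848 in those of LS, and 0.81 and 0.958 in the Cy3 tumors. Its part in the differences was not tested. With the strength of each array as a covariate 271 probes passed, 212 of them higher. Both orientations on their own called 54 probes on the same side, all higher in subgroup B, and 44 of these carried a symbol, of 38 genes. They included all 14 of the leading higher genes of the plot of single tumors, such as ANKRD17 (1.85 in Cy5 and 2.39 in Cy3), WNK1 (1.58 and 1.51), ANKRD11 (1.45 and 1.59) and SRRM1 (1.55 and 1.32). None of the lower probes was among them. The 14 leading higher genes were chosen by p over these same arrays, so their calls in each orientation follow largely from that choice.

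Probes of 1 gene often did not move alike. Of the 150 higher genes 81 had several probes on the array, and 15 of these had 2 or more probes called higher and 7 had all of them. SON, BAZ1B, ANKRD17, BOD1L1, CCAR1 and LIMS1 were called at more than 1 probe. SRRM1, WNK1, RBBP6, NCOR1, PON1 and PARP4 were called at 1 probe only. Which transcripts each clone detects was not analysed here, and a level of a named gene is that of its probe.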

How the data were processed

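Total RNA of 32 snap-frozen tumors was amplified to cRNA and hybridized with a pool of all tumors on 2-color canine cDNA arrays. Before deposit the authors marked poor spots, normalized by print-tip Lowess, took logarithms and switched the values of arrays with swapped dyes. The deposited values are taken here as log2 ratios of tumor over pool. The log base is not stated in the sources used here, and values lay symmetrically around 0. The image software is not given in the sources used here.

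The platform annotation gave 1 gene symbol for 7694 of 22176 probes and more than 1 for 0. The other 14482 probes stay unnamed, which does not mean that they lack a gene. Gene identifiers matched 7340 of the named probes to current symbols, which changed 0. There were 5 missing values. Subgroup B (8) and LS (16) were compared in limma 3.58.1 under R 4.3.3 (lmFit and eBayes) with dye orientation as covariate and p-values adjusted by Benjamini-Hochberg for the 22176 probes. The limit of 0.10 is the false discovery rate used in the study. Every probe had at least 8 values in subgroup B and 15 in LS. The fit was run on simulated data with independent noise and 1 dye effect per probe, equal in all arrays. That simulation leaves out the differing dye strength of the real arrays, so it cannot show how the fit handles it. Differences within each orientation and an interaction term were computed as well. Alternatives covered the covariates, scaling, array weights, the LS tumors used, the sign of the Cy3 arrays and each array left out. Depth is not defined for arrays, whose number limits the precision.

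Members of the subgroup and 35 gene lists were chosen with earlier results of these data known, and 34 lists had a probe. Named genes were the 14 higher and 14 lower genes with the smallest p on the same side in both orientations, the 5 of each with the largest difference, the study list and up to 4 genes per list by p. A gene with several probes is given by the probe with the smallest p. No promoter, protein or clone sequence was used here.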

Additional observations from a re-analysis of the deposited data

Results flagged for a closer look

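For 2 of 155 named genes the difference between subgroup B and LS itself differed between dye orientations (interaction term of limma at an adjusted p under 0.10). Over all probes it did so at 1314 of 22176 (5.93%). Most named genes were chosen by a small p with both orientations together, which tends to favor differences alike in both. The rule that leading genes lie on the same side in both removed none of the 310 called probes. The count of 2 therefore does not show that it is rare. For SLMAP the log2 difference in Cy5 less that in Cy3 tumors was 0.5995. For PFKL, a phosphofructokinase of glycolysis that did not pass between subgroup B and LS, it was -0.8791. The part of the dye strength given in the report was not tested.

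In 11 of 155 named genes 1 tumor of subgroup B stood far from the other 7, its gap to the nearest taking up more than Dixon's critical share of the range of the group. Chance alone marks about 1 group in 20, and each of the 155 genes was looked at. Tumor 4 was apart in 4 of them: CYBB at 3.21 (next 0.39), TLN1 at 1.27 (next 0.43), ARIH2 at -0.62 (next -0.18) and MYCN, a growth regulator, at -2.32. Tumor 11 was apart for PECAM1, an adhesion molecule of endothelium, at 3.01 (next 0.71) and MRPS31 at 0.89 (next 0.19), and tumor 10 for HSPA9, a mitochondrial chaperone, at 2.13 (next 0.64) and RBBP6 at 1.56 (next 0.75). Tumor 7 was apart for TPM1, a tropomyosin, at 1.04 (next -0.53), tumor 8 for NKG7, a gene of cytotoxic lymphocytes, at 0.45 (next -0.07), and tumor 12 for NR4A2, an immediate early nuclear receptor, at 0.42 (next 0.05).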

How the results depend on the processing

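Against 310 probes called (250 higher, 60 lower), leaving out the dye term gave 99 (96 and 3), the Cy5 arrays alone 1385 (1233 and 152) and the Cy3 arrays alone 211 (111 and 100). Array weights gave 498 (405 and 93), a fit of all 32 arrays 227 with 35 lower, equal median absolute deviations 424 with 104 lower, quantile normalization 454 with 106 lower, LS of limb long bones only 206 (179 and 27), and an adjusted p under 0.05 185 with 16 lower. With the sign of the Cy3 arrays turned 1263 passed (1157 and 106). The share of calls that were higher, 80.6%, became 97% without the dye term, 52.6% in Cy3 and 91.6% with the sign turned. Leaving out single arrays gave 200 (without tumor 12) to 509 (without tumor 22) calls, 173 to 393 higher and 26 (without tumor 3) to 125 (without tumor 7) lower. The causes were not tested. Other alternatives, namely sex, dye strength, trend and robust variance, and probes without missing values, kept the total between 271 and 330.

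Among the named genes, 28 lost their call without the dye term, 35 in the Cy3 arrays alone and 21 with LS of limb long bones. Many of the 155 named genes were list members that had not passed and had no call to lose. These counts are therefore not shares of 155. Calls close to the limit rested on single arrays: MRPS31, MPDZ, FIBP and RPS28 passed in only 6 of the 24 fits that left out 1 array, HMGB1 and MRPL19 in 10, ETFRF1 and AFG3L2 in 13, HSP90B1 in 15, POLR2G in 16 and GPRC5B in 17. The 14 leading higher genes passed in all 24. Of the named genes that passed, none changed sign except with the sign of the Cy3 arrays turned, while 19 that did not pass, COMP, CTSK, SCD, DGAT2 and ALPL among them, changed sign in other settings. With the Cy3 sign turned the log2 differences became 0.0001122 for ZNF428, 0.01322 for AAAS, -0.27 for HSP90AA1, -0.11 for PON1, -0.11 for SCAF11, -0.16 for HSP90B1, 0.008763 for RPS28 and -0.01867 for ABCC5. That setting goes against the methods. No paired analysis was possible because the replicate numbers are array numbers that subgroup B and LS do not share, and each tumor came from another dog.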

Other observations

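Genes outside the lists were named after their values were seen, so no count over them is given. Among genes of the cytoskeleton, SPTAN1, the spectrin that lines the cell membrane, differed by 1.47 (SE 0.30) between subgroup B and LS on the log2 scale, but by 2.14 in Cy5 and only 0.52 in Cy3 tumors. SEPTIN11, a filament-forming GTPase, differed by 0.89, with 7 of 8 tumors of subgroup B above every LS tumor and 1 below every LS tumor, and SEPTIN7 by 0.61. DST, a linker of filaments to junctions, differed by 1.00 and IQGAP1, a scaffold at the cell cortex, by 0.86.

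In the small RNA pathway AGO2, which carries the guide RNA, differed by 0.73 and DICER1, which cuts its precursor, by 0.33. NCAPD2, a condensin subunit, differed by 1.03, with 6 of 8 tumors above LS. DNMT1, the maintenance DNA methyltransferase, differed by 0.60. In the Golgi, GOLM1 differed by 1.34 (0.90 in Cy5 and 1.96 in Cy3) and GLG1 by 0.56. Of subunits of RNA polymerase II, POLR2C (-0.28) was lower, as was POLR2G.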
